A study of Mus musculus with 12 samples.

Results

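RNA-adjusted binding is the amount of a gene's RNA recovered with the protein hnRNP H, set against the amount of that RNA in the same tissue. It was compared here between the striata of mice given methamphetamine, a psychostimulant, and of mice given saline. All 12 libraries of the series were used at gene level. hnRNP H-bound RNA had been measured by CLIP-seq (cross-linking, immunoprecipitation and sequencing of the bound fragments), and total RNA by RNA-seq from a portion of the same pools set aside before cross-linking. Each CLIP position was counted once, its reads were summed per gene and expressed as log2 CPM (the log2 of a gene's reads after scaling each library to a common total), and the RNA-seq log2 CPM of the same pool was subtracted. A value of 0 means that a gene takes an equal share of both libraries, and a value of 1 that its share of the CLIP reads is 2-fold its share of the RNA-seq reads. Of 16910 genes with CLIP positions, 13341 were matched to the RNA-seq table, and 7233 of these had at least 10 CLIP reads in at least 3 libraries. These 7233 genes are the members described here. A further 1113 genes passed the read minimum, had no match in the RNA-seq table and were not analysed here.

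Both groups were wild-type C57BL/6J mice aged 50 to 100 days, bred from sires that were heterozygous for an Hnrnph1 mutation and C57BL/6J dams. All of them received saline (10 ml/kg) on the first days of the protocol. On day 3 one group received methamphetamine (2 mg/kg) and the other saline again, and whole striata were taken 30 minutes later. Each of the 3 pools per treatment joined the striata of 4 mice, 2 of them female and 2 male, so a pool is the replicate and differences between single mice are not visible. Whole striatum holds projection neurons, interneurons, glia and vessels, and in such bulk tissue fewer cells of a type and less RNA per cell cannot be told apart.

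hnRNP H is a nuclear RNA-binding protein that prefers runs of guanine. It takes part in splicing and in 3′ end formation, and much of the RNA it meets is still unspliced, so its reads fall largely in introns, while RNA-seq of a gene counts mainly its mature transcript. The striatum receives dopamine from the midbrain, and its projection neurons answer through D1 and D2 dopamine receptors that act on cAMP. Methamphetamine raises extracellular dopamine.

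The strongest CLIP position of a gene is shown for 6 genes whose sequence could be read from GENCODE M21 transcripts (GRCm38). The first 3 are those of the 12 genes ranked below whose position lies in an intron or coding exon of a readable transcript, and the other 3 are genes with well-covered positions that show what the precipitated RNA looks like. Runs of at least 3 G are in capitals, and each sequence is given 5′ to 3′ on the strand of its gene.
Trim35, intron, chr14:66297632-66297731, plus strand: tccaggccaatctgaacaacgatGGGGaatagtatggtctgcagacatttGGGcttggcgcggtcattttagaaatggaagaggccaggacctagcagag
Fubp1, coding exon, chr3:152223323-152223422, plus strand: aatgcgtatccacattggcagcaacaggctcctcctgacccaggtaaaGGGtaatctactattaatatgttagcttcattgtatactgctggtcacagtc
Macrod2, intron, chr2:140660910-140661009, plus strand: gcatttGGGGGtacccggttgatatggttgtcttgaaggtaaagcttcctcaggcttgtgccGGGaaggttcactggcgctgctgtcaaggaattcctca
Srsf6, intron, chr2:162932529-162932628, plus strand: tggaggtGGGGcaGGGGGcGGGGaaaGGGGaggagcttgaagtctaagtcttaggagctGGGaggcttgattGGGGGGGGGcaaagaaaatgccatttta
Penk, coding exon, chr4:4134032-4134131, minus strand: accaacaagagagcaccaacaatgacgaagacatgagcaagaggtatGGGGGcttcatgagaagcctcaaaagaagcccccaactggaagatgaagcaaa
Hnrnph1, intron, chr11:50382191-50382290, plus strand: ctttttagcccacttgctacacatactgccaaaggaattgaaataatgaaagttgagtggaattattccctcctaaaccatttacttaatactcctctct
The position in Srsf6, a splicing factor of the SR family, had 6 such runs, the longest of 9 G. The position that holds most reads of Hnrnph1, the gene of the precipitated protein, had none. The Macrod2 position lies opposite a coding exon of Flrt3 on the minus strand, and its sequence was read from that transcript as the reverse complement.

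Read depth was 423057 to 1635338 CLIP reads and 3935160 to 5091839 recovered RNA-seq reads per library. The median member gene had 8 CLIP positions, 95.2% of its CLIP reads in introns and 43.6% of them in its strongest position. The pools did not separate by treatment on the first principal component of RNA-adjusted binding, which held 39.6% of the variance. Saline replicates 1 and 3 and methamphetamine replicate 2 lay at 0.36 to 0.43 on it, and saline replicate 2 and methamphetamine replicates 1 and 3 at -0.51 to -0.18, the same split as in RNA-seq. These are called set A and set B below; they were defined from the data, the labels name no batch that follows them, and each holds pools of both treatments. Methamphetamine replicate 1 and saline replicate 2 stood apart in CLIP. Their CLIP levels correlated with those of the other pools at 0.71 to 0.77 and at 0.75 to 0.77. Pairs without either pool had 0.80 to 0.94. Saline replicate 2 had the fewest CLIP reads, 423057. Methamphetamine replicate 1 had 60.7% of its member reads outside each gene's strongest position, where the other 5 pools had 39.0% to 40.9%. RNA of the choroid plexus, a tissue next to the striatum, also differed: its 12 markers summed to 5388 CPM in methamphetamine replicate 2 and to 151 to 292 CPM in the other 5 pools. The defining markers of projection neurons were all present in RNA-seq, at 5552 to 8888 CPM summed over 12 genes, and no marker of the 8 cell type lists was below 1 CPM in every pool.

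**Figure D1:**
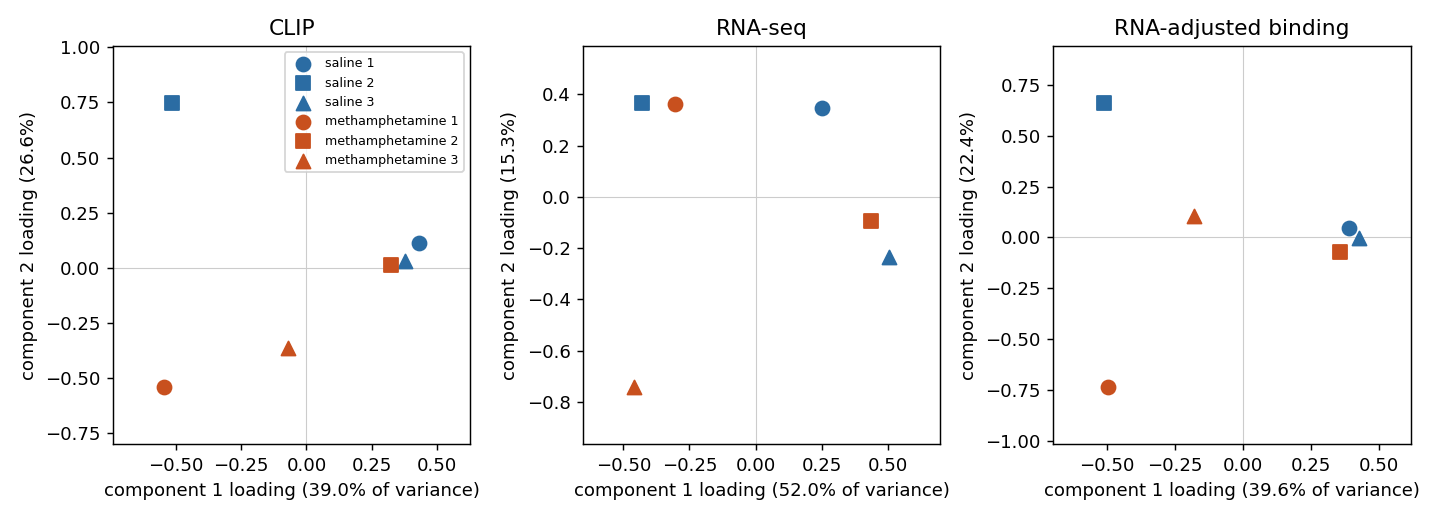
Loadings of the 6 pools on the first 2 principal components of the 7233 member genes, for CLIP log2 CPM, RNA-seq log2 CPM and their difference; blue marks saline, orange methamphetamine, and the symbol gives the replicate number. In the RNA-adjusted panel component 1 separates set A (0.36 to 0.43) from set B (-0.51 to -0.18), and component 2, with 22.4% of the variance, separates saline replicate 2 from methamphetamine replicate 1.

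The main comparison asked which genes were more or less bound per unit of RNA after methamphetamine. With limma and Benjamini-Hochberg adjustment over the 7233 genes, 0 genes (0%) had an adjusted p-value under 0.05, and the smallest adjusted p was 0.998. At an unadjusted p under 0.05 there were 195 genes, of which 94 (1.30%) were higher and 101 (1.40%) lower after methamphetamine. With CLIP scaled by TMM factors that division was 79 higher and 132 lower, and with RNA-seq over plain read totals 65 higher and 116 lower. All 3 methamphetamine pools lay above all 3 saline pools in 345 genes (4.77%) and below them in 209 genes (2.89%). The difference was positive in 3936 of the 7233 genes (54.4%), the background over all genes for the counts of gene lists given here. That share differed by kind of gene. It was 49.0% of genes with 0% to 10% of their CLIP reads in introns and 69.0% with 10% to 50%. With 50% to 90% it was 68.5%, and with 90% to 100% it was 46.7%. The median difference over all genes was 0.07, and the middle 50% of genes lay between -0.36 and 0.49 on the log2 scale. On simulated data drawn from these libraries, the test found 0 of 200 genes given a log2 change of 1, 3 of 200 given 2 and 156 of 200 given 4. Most differences of 2 or less, which is 4-fold or less, were therefore not detectable at this replication. edgeR and DESeq2 models of the counts with the assay as a term also gave 0 adjusted calls, with 181 and 233 genes at an unadjusted p under 0.05. Leaving out 1 pool moved the unadjusted count by over 1.5 times for 3 pools: it was 358 without saline replicate 2, 124 without methamphetamine replicate 1 and 484 without methamphetamine replicate 2, with 0 adjusted calls in each. Without saline replicate 2 all saline pools are of set A, and without methamphetamine replicate 2 all methamphetamine pools are of set B. Treatment and library set are partly confounded in these fits, so their higher counts cannot be read as a treatment effect.

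Each assay alone gave the same count of adjusted calls. CLIP without the RNA term had 0 genes past the adjusted threshold (0%; smallest adjusted p 0.938 with limma) and 245 at an unadjusted p under 0.05, 160 higher (2.21%) and 85 lower (1.18%). On the CLIP counts of the same genes, edgeR and DESeq2 gave 0 adjusted calls too, with 367 and 349 at an unadjusted p under 0.05. RNA-seq of the members had 0 past it as well (0%; smallest adjusted p 0.9998), with 38 higher (0.525%) and 28 lower (0.387%) unadjusted. Of the 195 genes of the RNA-adjusted comparison, 111 (56.9%) were also among the 245 of CLIP alone, of which they made up 45.3%. A further comparison with RNA-seq alone had 24 shared genes, 12.3% of the 195 and 36.4% of the 66. CLIP alone and RNA-seq alone had 1 gene in common. RNA-adjusted values share their data with each single assay, so these overlaps are descriptions.

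Subtracting RNA-seq widened the spread between pools of the same treatment. The median within-treatment SD of a gene was 0.61 on the log2 scale for CLIP alone, 0.29 for RNA-seq alone and 0.75 for RNA-adjusted binding, and it was wider after subtraction in 5100 of 7233 genes (70.5%). In each pool, a gene's deviation from its treatment mean in CLIP was close to unrelated to its deviation in RNA-seq, with Pearson correlations across genes from -0.07 to 0.03 and slopes from -0.17 to 0.04. A slope of 1 would mean that CLIP follows RNA between pools. Reads in introns and reads in exons gave like values, over 1148 genes with enough of both: -0.07 to 0.05 for introns and -0.07 to 0.03 for exons. Genes are not independent replicates, and both values of a pool come from the same tissue but from separate libraries. In single pools the median absolute deviation of RNA-adjusted binding was 1.12 to 1.35 times that of CLIP alone. Deeper genes were less spread: the median SD of RNA-adjusted binding was 0.93 for 1278 genes with a mean under 15 CLIP reads and 0.59 for 1608 genes with at least 100.

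**Figure D2:**
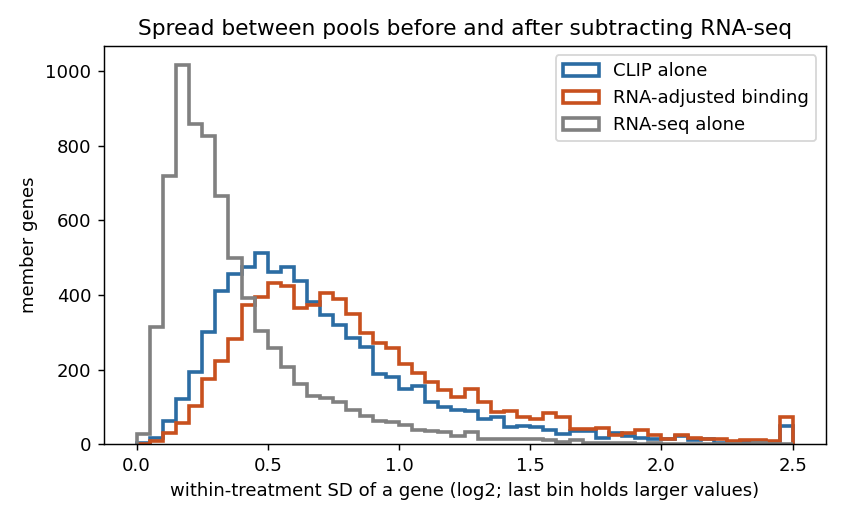
Histogram of the within-treatment SD (log2 scale, x axis) over the 7233 member genes (y axis, genes per bin) for CLIP alone, RNA-seq alone and their difference. The distribution of RNA-adjusted binding (median 0.75) lies to the right of that of CLIP alone (median 0.61).

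The 6 genes with the smallest unadjusted p in each direction, among members with a mean of at least 10 RNA-seq reads, are named as a ranking; none passed the adjusted threshold, and each had a limma adjusted p of 0.998. Cd4 (chromosome 6, 124864692 to 124888221, minus strand), a coreceptor of T cells that is also transcribed in brain tissue, had 7, 5 and 8 CLIP reads in the saline pools, in the order of their replicate numbers, and 40, 21 and 20 in the methamphetamine pools. Its RNA-seq reads were 248, 295 and 249, and then 296, 239 and 225. RNA-adjusted binding of Cd4 was therefore -3.29, -2.26 and -3.57 after saline and -0.41, -1.32 and -0.34 after methamphetamine. The groups did not overlap, and the difference was 2.35 ± 0.66 (SE; n = 3 pools each; limma adjusted p 0.998). It was made of a higher CLIP level (2.04) and a lower RNA-seq level (-0.31). Rnf20 (chromosome 4, 49632006 to 49656887, plus strand), a ubiquitin ligase for histone H2B, had -2.36, -2.50 and -1.96 after saline and -0.04, -1.24 and -0.35 after methamphetamine, a difference of 1.73 ± 0.58. Its CLIP reads were 10, 4 and 24, and then 48, 23 and 36, spread over 19 positions.

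Etf1, the translation release factor, had 0.13, 0.01 and 1.13 after saline and 1.66, 2.13 and 1.91 after methamphetamine, a difference of 1.48 ± 0.50 (SE). Of its CLIP reads, 82.7% lay in 1 position in the 3′ UTR. Ap4e1 (chromosome 2, 127008717 to 127067909, plus strand), a subunit of the AP-4 trafficking adaptor, had only 5, 1 and 11 CLIP reads after saline and 14, 18 and 19 after methamphetamine. Its values were 0.01, -1.27 and 0.04, and then 1.25, 1.59 and 2.68. Trim35 (chromosome 14, 66297031 to 66311424, plus strand), a tripartite-motif protein, had -3.65, -4.74 and -2.90 after saline and -1.01, -2.61 and -2.13 after methamphetamine. All 3 genes had groups that did not overlap. The Trim35 value in saline replicate 2 rests on 3 reads, 12 of the 19 reads at its strongest position (printed above) came from methamphetamine replicate 1, and its exons overlap 1700001G11Rik, so its counts are uncertain. Fubp1 (chromosome 3, 152210422 to 152236826, plus strand), a nucleic acid-binding protein that also acts in splicing, had -1.69, -0.88 and -1.39 after saline and 1.23, 1.10 and -0.41 after methamphetamine, a difference of 1.96 ± 0.70. In the printed coding position of Fubp1, methamphetamine replicate 1 had 13 reads and no other pool more than 2.

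Among the genes with a lower value after methamphetamine, Ror1 (chromosome 4, 100095791 to 100444765, plus strand), a receptor tyrosine kinase-like protein, had 132, 155 and 68 CLIP reads after saline and 16, 44 and 7 after methamphetamine. Its RNA-seq reads were few, 14 to 35 per pool. RNA-adjusted binding of Ror1 was 4.95, 6.04 and 3.19 after saline and 2.22, 2.49 and 2.08 after methamphetamine, a difference of -2.47 ± 0.69 (SE; limma adjusted p 0.998). The groups did not overlap, though without the strongest position the difference was -0.91. Hs3st2 (chromosome 7, 121391859 to 121501770, plus strand), a heparan sulfate sulfotransferase, had 0.13, 0.26 and 1.64 after saline and -1.27, -0.89 and -2.27 after methamphetamine. Its CLIP difference was -1.43 and its RNA-seq difference 0.73, and the groups did not overlap. Its exons overlap Gm36736, so its counts are uncertain.

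Dock1 (chromosome 7, 134670654 to 135173639, plus strand), an activator of the GTPase Rac, had 273, 62 and 1134 CLIP reads after saline and 51, 147 and 29 after methamphetamine. Its RNA-adjusted values were 2.76, 1.82 and 3.75, and then 0.12, 1.60 and 0.01. The groups did not overlap; 77.2% of its reads lay in 1 intronic position, and without it the difference was -0.92 in place of -2.20. Tmem200a (chromosome 10, 25912331 to 26079052, minus strand), a transmembrane protein, had 2.48, 3.87 and 4.09 after saline and 0.09, 2.32 and 0.56 after methamphetamine; its exons overlap Gm9767. Macrod2 (chromosome 2, 140395309 to 142392966, plus strand), an enzyme that removes ADP-ribose, had 3.19, 4.69 and 4.62 after saline and 1.89, 3.20 and 1.62 after methamphetamine. Arhgap25 (chromosome 6, 87458545 to 87533259, minus strand), a GTPase-activating protein, had 3.54, 5.77 and 5.05 and then 0.95, 3.77 and 1.79. Groups overlapped in Macrod2 and Arhgap25 and not in Tmem200a. At the printed Macrod2 position, saline replicate 2 had 310 reads, saline replicates 1 and 3 had 76 and 99, and methamphetamine replicates 1 to 3 had 23, 62 and 28. All CLIP reads of the 6 genes with a lower value lay in introns, and their differences were -4.40 to -1.75 within set B and -1.78 to -0.52 within set A. The 6 genes with a higher value had 4.64% to 100% of their reads in introns, with differences of 1.29 to 3.24 within set B and 0.67 to 2.63 within set A.

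**Figure D3:**
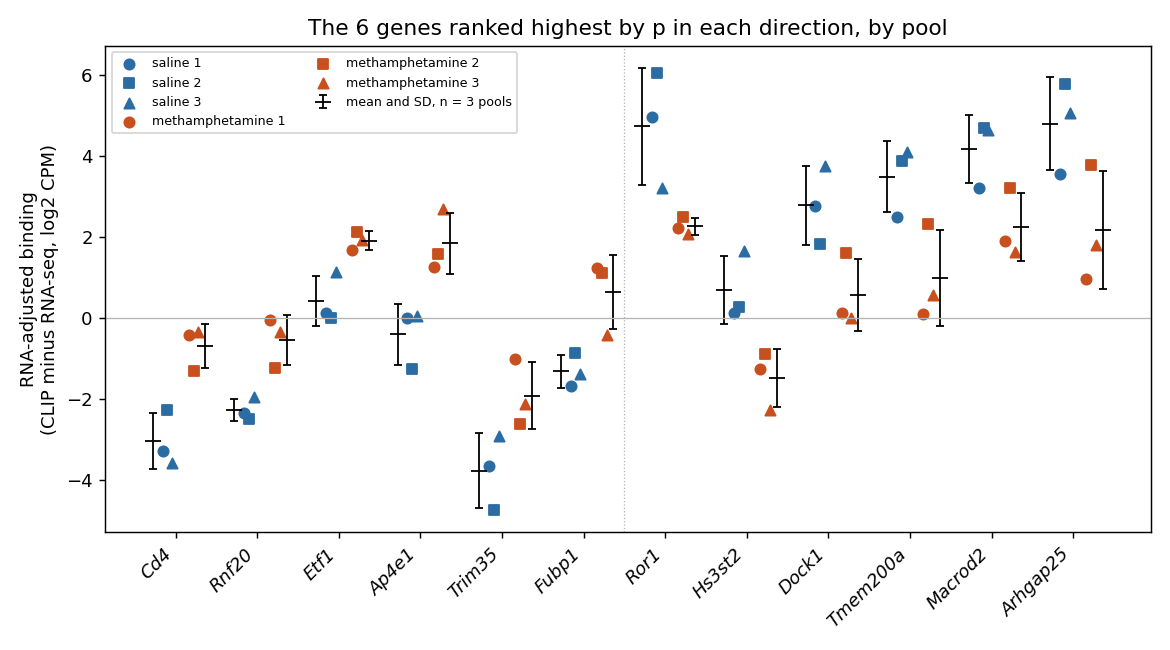
RNA-adjusted binding (y axis, CLIP minus RNA-seq log2 CPM) of the 12 ranked genes in each pool; blue marks saline, orange methamphetamine, symbols give the replicate number, and bars give the mean and SD of 3 pools. In Cd4 the saline pools lie at -3.57 to -2.26 and the methamphetamine pools at -1.32 to -0.34, while in Macrod2 saline replicate 1 (3.19) and methamphetamine replicate 2 (3.20) meet.

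The genes of hnRNP H itself and its nearest relatives had overlapping groups. Hnrnph1 (chromosome 11, 50376990 to 50386528, plus strand) had 2.29, 1.56 and 2.69 after saline and 2.26, 2.73 and 2.04 after methamphetamine, a difference of 0.16 ± 0.47 (SE), with 88.7% of its CLIP reads in the intronic position printed above. Hnrnpf (chromosome 6, 117900324 to 117925622, plus strand), which binds similar G-runs, had -0.21, -0.15 and 0.42 after saline and -0.15, 0.18 and -0.01 after methamphetamine. Hnrnph2, the X-linked paralog, had 7, 0 and 37 CLIP reads after saline and 19, 17 and 4 after methamphetamine, too few and too scattered for its difference of 1.24 ± 1.24 to be read. How the counting divided reads among such close relatives is not given in the sources used here. Cacna2d2 (chromosome 9, 107399612 to 107529343, plus strand), a calcium channel subunit, had -2.02, -1.86 and -2.15 after saline and -0.77, -2.08 and -1.05 after methamphetamine. Its difference of 0.71 ± 0.53 was 0.45 without methamphetamine replicate 1, and its exons overlap Gm17141.

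The D1 and D2 dopamine receptors had positive differences with overlapping groups. Drd1, the D1 receptor of direct-pathway projection neurons, had 11, 5 and 39 CLIP reads after saline and 41, 11 and 12 after methamphetamine, against 606 to 774 RNA-seq reads. Its RNA-adjusted values were -4.01, -3.56 and -2.73, and then -1.73, -3.56 and -2.83, with overlapping groups and a difference of 0.73 ± 0.69 (SE), or 0.24 without methamphetamine replicate 1. Drd2, the D2 receptor of indirect-pathway neurons and of dopamine terminals, had more CLIP reads, 36 to 304 per pool over 117 positions. Its values of -1.01, -1.73 and -1.58 after saline and 0.33, -1.07 and -0.69 after methamphetamine gave a difference of 0.97 ± 0.50, or 0.56 without methamphetamine replicate 1. Of the 9 members among 10 genes of dopamine receptors, synthesis, transport and breakdown, 3 had a positive difference and 6 a negative one, with a median of -0.21. That direction rested on saline replicate 3, without which 6 of 9 were positive and the median was 0.30, and the median ran from -0.63 to 0.30 with single pools left out. At an unadjusted p under 0.05 there was 1 in each direction. Slc18a2, the vesicular monoamine transporter and the one with the lower value, named after its values were seen, had 30, 2 and 161 CLIP reads after saline and 5, 17 and 0 after methamphetamine on 8 to 26 RNA-seq reads per pool, and its groups overlapped. Exons of Slc18a2 overlap another gene.

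Genes of striatal cAMP signalling, which carry dopamine receptor signals in projection neurons, all had a positive difference. There were 17 members of a list of 20, with a median of 0.61 beside 0.07 over all genes, and 1 of them (Arpp19) had an unadjusted p under 0.05. The list's median share of CLIP reads in introns was 78.8%, and 68.5% of all 1669 genes with 50% to 90% had a positive difference. Among the 1808 members with the highest RNA-seq levels (6.61 log2 CPM or more) the median difference was 0.38. Without methamphetamine replicate 1 it was 0.12. The part of RNA level in the list's result was not tested. In CLIP alone the list's median difference was 0.42 and in RNA-seq -0.21. The count was again 17 of 17 with each other scaling and 15 of 17 without methamphetamine replicate 1, where the median was 0.20. Pde10a, the striatal phosphodiesterase of cAMP and cGMP, had 1.30, 0.62 and 0.90 after saline and 1.95, 1.26 and 1.00 after methamphetamine over 555 CLIP positions. Pde1b, a calmodulin-dependent phosphodiesterase, had 0.58, -0.36 and 0.75 and then 0.31, 1.01 and 0.69. Both genes, at mean RNA-seq levels of 10.3 and 10.2 log2 CPM, were among those 1808. Groups overlapped in both. They did not overlap in Gng7, a G protein subunit that works with the olfactory-type alpha subunit, and in Prkar2b, a regulatory subunit of protein kinase A, both named because of their values. Gng7 had -0.82, -1.02 and -0.60 after saline and 0.53, -0.40 and -0.31 after methamphetamine. Prkar2b had -2.34, -1.90 and -1.66 and then 0.62, -1.60 and -1.29. In both genes methamphetamine replicate 1 was the highest pool by a wide margin.

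Striatal projection neuron markers, 5 of which are also in that signalling list, had the same sign: 10 of 10 members had a positive difference, with a median of 0.69, or 0.23 without methamphetamine replicate 1. Their median share of CLIP reads in introns was 81.0%, in the same range as that list. Rgs9, a brake on G protein signalling, had 1.502, 1.40 and 1.24 after saline and 2.39, 1.32 and 1.49 after methamphetamine. Foxp1, a transcription factor, had 1.63, 1.47 and 1.46 and then 1.69, 1.90 and 1.84, the one marker whose groups did not overlap. Its exons overlap other genes. Rgs9 and Foxp1, at mean RNA-seq levels of 8.32 and 8.13 log2 CPM, were also among the 1808 members with the highest levels. In RNA-seq the summed markers of this cell type were at 6179 to 8888 CPM after saline and 5552 to 7757 CPM after methamphetamine. These ranges mix the library sets, which hold unequal numbers of pools of each treatment. Within set A the sums were 8035 and 8888 CPM after saline and 7757 CPM after methamphetamine. Within set B they were 6179 CPM after saline and 5552 and 5614 CPM after methamphetamine. The part of these RNA levels in the result was not tested. Of the opioid peptides and receptors, Penk, the enkephalin precursor, had -4.99, -4.06 and -4.38 after saline and -2.42, -3.64 and -4.89 after methamphetamine. Oprd1, the delta receptor, had -2.88, -1.62 and -2.83 and then -1.35, -1.64 and -1.25. Both had overlapping groups, and only 3 of the 8 genes on that list were members.

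**Figure D4:**
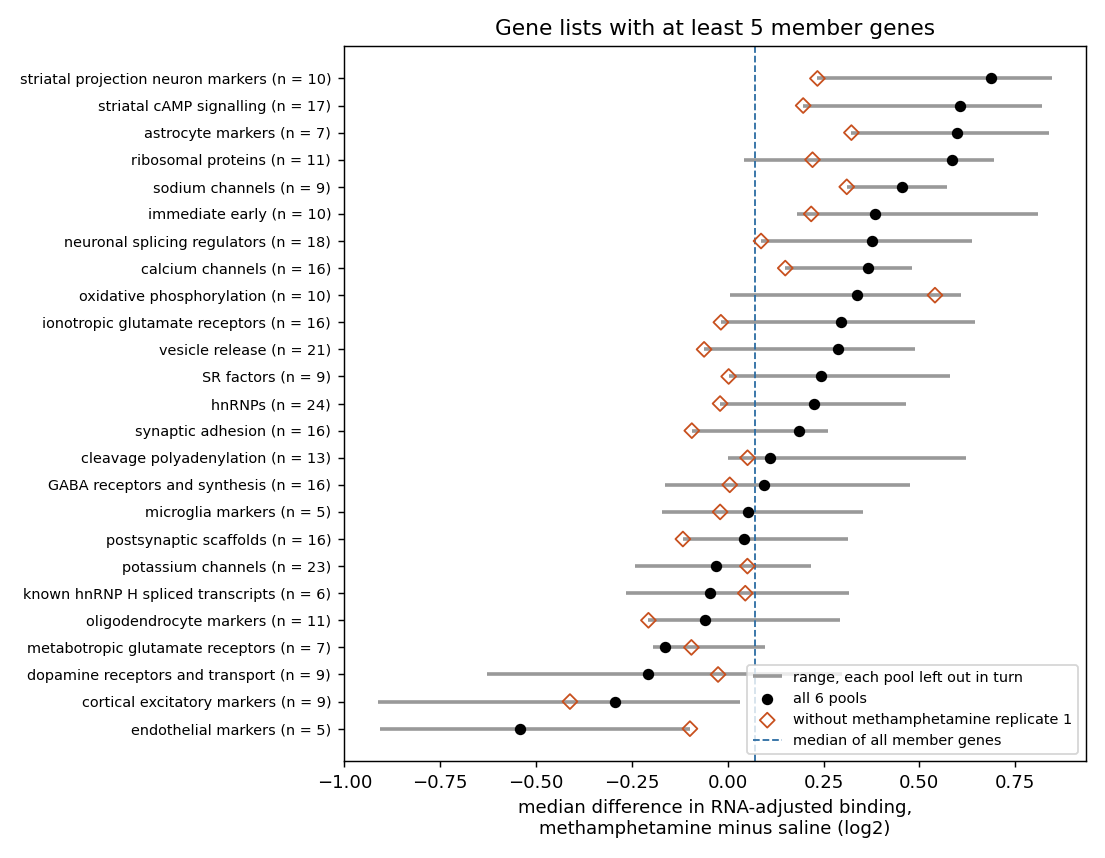
Median difference in RNA-adjusted binding (x axis, methamphetamine minus saline, log2) of 25 gene lists with at least 5 members; black points use all 6 pools, grey bars span the medians with each pool left out in turn, open diamonds leave out methamphetamine replicate 1, and the dashed line is the median of all members (0.07). The striatal cAMP signalling list moves from 0.61 to 0.20 and the ionotropic glutamate receptor list from 0.30 to -0.02 without that pool.

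Ion channel families had different counts of positive differences. All 9 sodium channel members had a positive difference (median 0.46; 8 of 9 and 0.31 without methamphetamine replicate 1), 12 of 16 calcium channel members did (median 0.36; 9 of 16 and 0.15), and 10 of 23 potassium channel members did (median -0.03; 13 of 23 and 0.05). Scn4b, the sodium channel beta subunit typical of projection neurons, had -2.93, -2.93 and -2.61 after saline and -2.11, -2.01 and -2.20 after methamphetamine, the one sodium channel gene whose groups did not overlap. Its difference was 0.72 ± 0.40 (SE), made of 0.38 in CLIP and -0.34 in RNA-seq. Scn8a, the sodium channel of axon initial segments, had -0.06, -0.90 and -0.52 and then 0.51, -0.19 and -0.32, with values that overlapped. Cacna1c, an L-type calcium channel, had 1.25, 0.12 and 0.66 and then 1.73, 1.07 and 1.33. Kcnma1, the large-conductance calcium-activated potassium channel, was singled out after its values were seen. Of the sodium, calcium and potassium channel members, it alone had all methamphetamine pools below saline: 2.80, 2.98 and 2.78 after saline against 1.82, 2.76 and 1.76. Gabrd, a GABA receptor subunit on another list, lay below in the same way. Over all 7233 genes, 2.89% lay below in this way and 4.77% above, so single genes of this kind do not set the channels apart. Exons of Kcnma1 overlap another gene.

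Medians turned from positive to negative without methamphetamine replicate 1 for ionotropic glutamate receptors, vesicle release, synaptic adhesion and postsynaptic scaffolds. Of 16 ionotropic glutamate receptor members 12 had a positive difference (median 0.30), and 8 without that pool (median -0.02). Of 21 members that act in vesicle release 16 did (median 0.29), and 8 without it (median -0.06). For 16 synaptic adhesion genes the count was 9 (median 0.19), and 5 without it (median -0.09). Grin2b, an NMDA receptor subunit, shows the pattern within 1 gene: 0.25, 0.05 and 0.11 after saline and 1.60, 0.18 and -0.35 after methamphetamine. Gria1, an AMPA receptor subunit, had 0.51, 0.77 and 0.68 and then 2.25, 0.66 and 0.14. In each of these genes methamphetamine replicate 1 was the highest of the 6 pools and methamphetamine replicate 3 the lowest. The median was 0.10 for 16 members of GABA signalling (9 positive), 0.04 for 16 postsynaptic scaffold genes (9 positive) and -0.16 for 7 metabotropic glutamate receptors (3 positive). With single pools left out these medians ran from -0.16 to 0.48, from -0.12 to 0.31 and from -0.20 to 0.10. Dlg4, the postsynaptic scaffold PSD-95, had 1531 to 6575 CLIP reads per pool and stayed between 1.40 and 2.05 in all 6. The scaffold Dlgap2 likewise stayed between 3.99 and 5.03.

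Genes for RNA processing were looked at as possible partners or targets of hnRNP H. Positive differences were found in 18 of 24 hnRNP members (median 0.22), 15 of 18 neuronal splicing regulators (median 0.38) and 8 of 9 SR splicing factors (median 0.24). Without methamphetamine replicate 1 these counts were 12, 13 and 5, with medians of -0.02, 0.09 and 0.0026. With CLIP scaled by TMM factors they were 15, 13 and 7. None of these genes had an unadjusted p under 0.05. Rbfox1, a splicing regulator of neurons, had 4.12, 3.36 and 3.32 after saline and 4.77, 3.80 and 3.52 after methamphetamine over 824 CLIP positions. Celf2, another one, had 3.83, 2.99 and 3.85 and then 3.70, 3.76 and 3.16. Srsf6, whose G-rich intronic position is printed above, had 2.95, 4.09 and 2.95 and then 4.08, 3.49 and 3.15. Groups overlapped in all 3 genes. Groups did not overlap for Srsf10, a splicing repressor, at 0.77, 1.65 and 1.881 after saline and 2.11, 2.44 and 1.92 after methamphetamine. Nor did they for Srrm4, a regulator of neuronal microexons, at 5.93, 5.69 and 6.08 and then 5.12, 5.65 and 3.97; both genes are named here because of their values. Among 13 members for cleavage and polyadenylation 9 had a positive difference (median 0.11). Of 6 transcripts whose splicing is known to involve hnRNP H, 2 did (median -0.05). Without saline replicate 1 it was 5 of 6 (median 0.19), and without methamphetamine replicate 3 also 5 of 6 (median 0.32). With single pools left out the median for cleavage and polyadenylation ran from 0.0011 to 0.62.

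Immediate early genes, the first to be transcribed when a neuron fires, had 10 members of 20, and Fos and Btg2 missed the CLIP read minimum. Positive differences were found in 7 of the 10, with a median of 0.38, or 6 and 0.22 without methamphetamine replicate 1. Homer1, a scaffold gene with an activity-induced short form, had -2.58, -1.11 and -2.80 after saline and 0.82, -2.21 and -1.31 after methamphetamine. Klf10, a transcription factor, had 2.59, 1.46 and 3.29 and then 1.77, 2.76 and 2.10. Nr4a1, a nuclear receptor, was the one member of the list whose groups did not overlap, at -1.91, -1.78 and -1.71 and then -0.20, -1.60 and -1.32.

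Housekeeping lists were covered in part. Of 38 ribosomal protein genes 11 were members, with 7 positive differences (median 0.59; 0.22 without methamphetamine replicate 1), and of 20 genes of oxidative phosphorylation 10 were, with 7 positive (median 0.34; 0.54 without it). With CLIP scaled by TMM factors the second count was 5 of 10. Rpl13a, a protein of the large ribosomal subunit, had -2.58, -2.24 and -1.86 after saline and -0.86, -1.29 and -1.33 after methamphetamine, without overlap, while Rpl32 had -2.67, -2.81 and -2.86 and then -3.73, -2.50 and -3.19. Both genes overlap others, among them small nucleolar RNAs, so their counts are uncertain.

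Markers of other cell types were compared in the same way. All 7 astrocyte members had a positive difference (median 0.60; 6 of 7 and 0.32 without methamphetamine replicate 1), and all 5 endothelial members a negative one (median -0.54; 3 of 5 and -0.10 without it). None of these 12 genes had groups that did not overlap or an unadjusted p under 0.05. Slc1a2, the main glutamate transporter of astrocytes, had -3.13, -3.62 and -2.69 after saline and -1.67, -2.74 and -2.91 after methamphetamine. Vwf, the von Willebrand factor of vessel walls, had 6.47, 5.46 and 5.46 and then 4.07, 5.75 and 5.36. In RNA-seq, astrocyte markers summed to 3665 to 4938 CPM after saline and 3554 to 5119 CPM after methamphetamine, and endothelial markers to 89.1 to 172 and 110 to 199 CPM, so these ranges overlapped. Oligodendrocyte members split 5 to 6 (median -0.06) and cortical excitatory neuron members 2 to 7 (median -0.29). With single pools left out the oligodendrocyte median ran from -0.21 to 0.29, with 2 of 11 positive without methamphetamine replicate 1, 7 without saline replicate 1 and 8 without methamphetamine replicate 3. The cortical median ran from -0.91 to 0.03, with 5 of 9 positive without saline replicate 3. In the oligodendrocyte list both assays had a positive median difference, 0.42 in CLIP and 0.40 in RNA-seq. Of 5 microglial members 1, Csf1r, a growth factor receptor singled out after its values were seen, had an unadjusted p under 0.05. Its values were -3.77, -3.34 and -2.62 after saline and -1.57, -1.74 and -2.06 after methamphetamine. Interneuron members had 2 positive differences of 3 (median 0.29). Only 2 choroid plexus markers were members, with differences of opposite sign, -0.80 for Enpp2 and 1.41 for Clic6. Enpp2 had -3.72 in methamphetamine replicate 2, where its RNA was highest, and -1.95 to 0.07 in the other 5 pools. Clic6 RNA was also highest in that pool. Its values were -2.20, 1.10 and -2.53 after saline and 1.32, -2.24 and 1.50 after methamphetamine.

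The difference between treatments ran with how abundant a gene's RNA is. Members were split by RNA-seq level into 4 groups of 1808 or 1809 genes. In the group with the lowest level the median difference was -0.27, and in the groups above it -0.07, 0.11 and 0.38. Genes whose methamphetamine pools all lay above saline made up 2.21%, 3.93%, 5.09% and 7.85% of these 4 groups, and those whose pools all lay below 5.03%, 3.60%, 1.99% and 0.94%. Without methamphetamine replicate 1 the medians were -0.01, -0.04, 0.03 and 0.12, and Spearman's rho between difference and RNA level across the 7233 genes went from 0.36 to 0.09. The correlation between CLIP and RNA-seq levels across genes was 0.46 in that pool and 0.13 to 0.24 in the other 5. In the highest group the median CLIP level was 6.77 log2 CPM in methamphetamine replicate 1 and 5.84 to 6.16 in the others, and in the lowest group 4.35 against 4.79 to 4.98. RNA level enters RNA-adjusted binding with a negative sign, so these correlations are descriptions of genes that share their libraries.

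**Figure D5:**
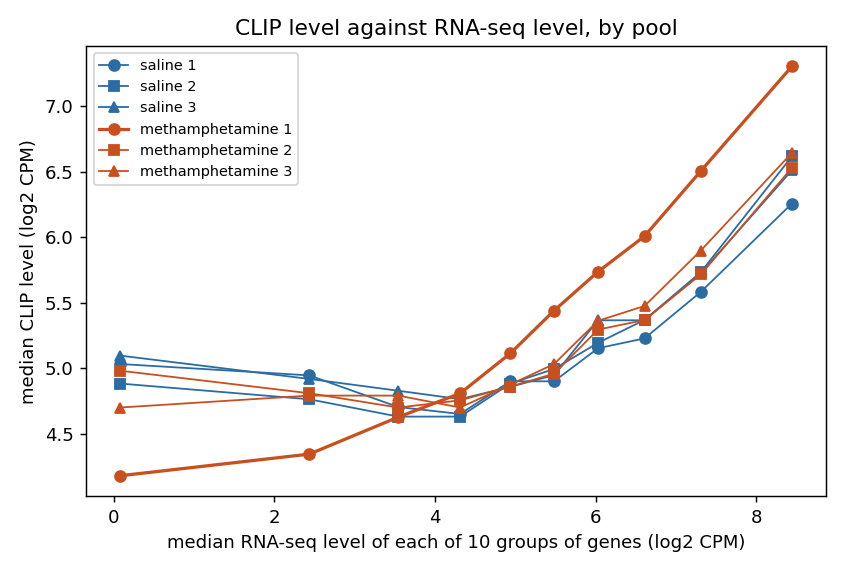
Median CLIP level (y axis, log2 CPM) of the 7233 members in 10 equal groups by mean RNA-seq level (x axis, median log2 CPM of the group), 1 line per pool; blue marks saline and orange methamphetamine. Methamphetamine replicate 1, the thick line, lies below the other 5 pools at low RNA levels and above them at high levels.

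The share of member CLIP reads outside each gene's strongest position was 39.0% ± 0.12 after saline and 47.4% ± 11.5 after methamphetamine (SD, n = 3 pools each). Every methamphetamine pool was above every saline pool, and the exact two-sided permutation p of 0.1 is the smallest that 3 against 3 allows. The difference of 8.37 percentage points was 1.75 without methamphetamine replicate 1, 1.59 within set A and 11.8 within set B. The share of member reads in exons was 19.2% ± 1.33 after saline and 20.8% ± 1.17 after methamphetamine (exact permutation p = 0.3). Across genes, rho with the difference was 0.33 for the number of CLIP positions, -0.38 for the share of the strongest position and -0.21 for the share of reads in introns. Without methamphetamine replicate 1 these were 0.02, -0.07 and -0.09.

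Where in the gene hnRNP H reads lay also went with the difference. In 801 genes with 10% to 50% of their CLIP reads in introns the median difference was 0.30, and in 1669 genes with 50% to 90% it was 0.26. In the 633 genes below that range it was -0.04, and also -0.04 in the 4130 genes with at least 90%. Without methamphetamine replicate 1 the medians in this order of groups were 0.15, 0.05, 0.07 and -0.01. With only exon positions the median difference was 0.26 over 2029 genes, and with only intron positions 0.03 over 5933 genes, which are not the same set of genes. In the 1148 genes with enough reads of both kinds it was 0.39 for exon and 0.23 for intron positions. Of the strongest positions, 1909 could be read from a transcript, and a run of at least 4 G was present in 54.9% of them, on the strand of the gene and at any place in 100 bases. That share was 60.8% of 125 genes whose methamphetamine pools all lay above saline and 46.9% of 32 genes whose pools all lay below, while a run of at least 3 G was present in 83.2% and 84.4%. Readable positions are mostly exonic, and their genes had a median difference of 0.24, so they do not stand for all members.

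Peak lists that the authors made for each treatment were set beside the members. Genes with a position on the methamphetamine list only (1019) had a median difference of 0.26, those on the saline list only (979) -0.09, those on both (2967) 0.07 and those on neither (2268) 0.07. The lists were called from these same CLIP libraries, so this is no independent support. Genes on 1 list only had fewer reads, with medians of 31.5 and 26.2 CLIP reads per library against 59.3 for genes on both.

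The extremes of RNA-adjusted binding were set by RNA-seq as much as by CLIP. Neither assay was divided by length, so no order between genes is read from these levels. Sntb1, a syntrophin of the dystrophin complex, had 829 to 4287 CLIP reads per pool in a single intronic position against 7 to 40 RNA-seq reads, and values of 8.61 to 10.5. Agbl4, a carboxypeptidase that trims tubulin tails, had 8.13 to 10.4, and Spata48 8.36 to 9.38. At the other end Pappa, a secreted metalloprotease, had 5 to 51 CLIP reads against 54745 to 213455 RNA-seq reads, and values of -11.6 to -9.37. Pnck, a calcium/calmodulin-dependent kinase, had 89731 to 137424 RNA-seq reads and -10.01 to -8.04, and Arhgef28, a guanine nucleotide exchange factor, 11708 to 123016 reads and -9.45 to -7.14. Set A had 63001 to 123016 RNA-seq reads of Arhgef28 where set B had 11708 to 33838, and the 2 sets did not overlap in its RNA-adjusted value either. What these reads come from was not tested. Exons of Hnrnpf, Penk, Grin2b, Celf2, Srrm4, Slc1a2, Csf1r, Enpp2, Tmem200a and Spata48 overlap those of other genes, so the counts of these genes are uncertain too.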

How the data were processed

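RNA-seq and hnRNP H CLIP-seq were measured in 6 pools of striata, 3 per treatment. CLIP values are counts per position and library, per the file headers of the table the authors deposited; of 172271 lines, 147438 distinct positions were used once each. The deposited RNA-seq table gives log2 CPM on a voom scale, per the labels, and 100% of its values inverted to within 0.05 of a whole read. The submitters' processing notes name Trimmomatic, UMI-tools, STAR, bedtools, Subread, featureCounts, limma, edgeR and mm10, without saying which step made which file; strand use in counting is not given in the sources used here. The authors' deposited peak lists, 1 per treatment, hold p-values and q-values, per the file headers, with all q-values below 0.05, and a signal score that was not used.

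CLIP counts were summed per Ensembl id and turned into log2 CPM with an offset of 0.5 reads. Symbols were matched through GENCODE M21, and 139 ids through RefSeq synonyms; 18 ambiguous symbols were left out. Exons of 36.9% of the members overlap another gene, and their counts are uncertain. RNA-adjusted binding was tested with limma 3.58.1 in R 4.3.3 (lmFit, eBayes with a variance trend on CLIP level, two-sided), Benjamini-Hochberg adjustment over all 7233 genes and a threshold of 0.05. edgeR 4.0.16 and DESeq2 1.42.0, fitted to CLIP counts and recovered RNA-seq reads with an assay by treatment term, were alternatives, beside scaling, offset, filter, variance trend, replicate block, library set, position subsets and each replicate left out. The limma step was tested on simulated data. Single values used exact permutation tests (scipy 1.17.1).

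Members and gene lists were chosen with earlier results of these data known. Named genes were the 6 with the smallest unadjusted p in each direction, the 2 genes of each list with the highest CLIP level, the 3 highest and 3 lowest in RNA-adjusted binding, and fixed genes; for some lists only 1 or none of these is described, and some of them are not reported here. List medians without methamphetamine replicate 1 were an alternative chosen after seeing the data. Those without saline replicate 2 are given only within the ranges over single pools left out. Whether reads were collapsed by molecular identifier is not given in the sources used here, so read depth speaks to counting error only.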

Additional observations from a re-analysis of the deposited data

How the results depend on the processing

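No setting gave a gene with an adjusted p under 0.05 for RNA-adjusted binding, among 21 alternatives, nor for CLIP alone or RNA-seq alone in the alternatives run for them. The smallest adjusted p of any fit of RNA-adjusted binding was 0.0876 with limma, without saline replicate 2. In that fit all saline pools were of set A, so treatment and library set were partly confounded. The count at an unadjusted p under 0.05 was 195. It was 93 with a mean of at least 30 CLIP reads, 415 with no filter on CLIP reads, 319 with the library set as a covariate and 46 with exon positions only, where fewer or more genes were tested except for the library set, whose cause was not tested. It ranged from 124 to 484 with single replicates left out. The percent of genes whose groups do not overlap was 7.07 with at least 30 reads, 9.08 without the top peak of each gene and 8.48 with exon positions only, and 13.1 to 23.8 with single replicates left out, where fewer pools are compared. The ratio of within-treatment SDs stayed between 1.15 and 1.25 in every alternative run.

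With the replicate number as a replicate block, 133 genes had an unadjusted p under 0.05 and 0 an adjusted one. Deviations of same-numbered saline and methamphetamine pools correlated at -0.19, -0.43 and -0.11, which gave no sign of a pairing across treatments. Deviations also followed the library sets, so this check cannot decide whether the numbers pair pools. The 12 ranked genes had been chosen for a small p in these same pools. Where groups do not overlap, leaving out a pool cannot turn the sign, so their count is no support. In 187 recomputed values of these 12 genes 0 changed sign. In 1260 values of 78 named genes 108 did, in 39 genes, and 1 of these had a difference above its standard error: Hnrnph2 had -0.076 without saline replicate 2, whose CLIP count for it was 0, and up to 2.53 without single replicates. With 3 pools per treatment, the test found 3 of 200 genes given a log2 change of 2 in simulated data.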
